A study of Schizosaccharomyces pombe with 15 samples.

Results

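The genes described here are 10 members of the MBF system of fission yeast, the factor that switches on the genes for DNA replication at the start of the cell cycle, together with some of its best-known targets. They are cdc10 and res2, which encode 2 parts of the factor, nrm1 and yox1, which encode its repressors, and the target or partner genes cdc22, suc22, cdc18, cdt1, cig2 and mik1. They were chosen by identifier for their roles, with earlier results of these data known, and are 10 of the 6998 genes listed in the deposited count tables. All 10 had enough counts to be tested, as did 5214 genes in all. RNA was sequenced from strain JY450, genotype wt, in 5 groups of 3 libraries, each from a biological replicate. One group had no irradiation, 3 were sampled 10 min, 15 min and 30 min after plasma irradiation, and the last was treated with hydrogen peroxide (H2O2). The plasma was formed at atmospheric pressure, and such an ionised gas is a source of reactive oxygen and nitrogen species. All cells grew in YE, a rich medium, and were held on a membrane filter on agar when irradiated. The sources used here give no growth phase for these samples, no plasma dose, and neither a dose nor a time for H2O2. The control labels give no time, so what plasma did and what time on the filter did cannot be told apart. The same 3 control libraries serve every treatment.

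MBF binds the MluI box, a short DNA element, through Res1 and Res2, with Cdc10 as the common partner, and drives a wave of transcription late in mitosis and in G1. Negative feedback closes the wave: Nrm1 and Yox1 are made from MBF targets and bind the factor to switch it off, and the cyclin Cig2 also holds it down. When replication forks stall, the kinase Cds1 keeps the targets on by releasing the repressors, whereas after DNA damage the kinase Chk1 acts on Cdc10 and the targets are turned down.

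The MluI box is the sequence ACGCGT, and its core ACGCG was searched on either strand. The stretches below show the densest 30 bases of core letters before the start codon of each of the 7 genes that have any in the windows searched. Some of them, such as those of cdc22, yox1 and cdt1, lie inside the deposited gene interval, between its start and the start codon. They were read from the RefSeq assembly ASM294v3 on the strand of the gene, and capitals mark each ACGCG on either strand.
nrm1: taaagggcgtCGCGTCGCGTtgcgttggac
yox1: tgatatagcgcgACGCGTcgttaaacgtga
cdc22: tagcgtgACGCGTctgaACGCGTttttcat
cdc18: tttCGCGTttacgtgtCGCGTCGCGTatat
cdt1: agctACGCGACGCGTcaacaaACGCGacac
cig2: aagCGCGTttctCGCGTCGCGTCGCGTtta
mik1: aaaaACGCGaACGCGTcatgACGCGTcgta
The nrm1 stretch lies at chrII:4285878-4285907 (plus strand), that of yox1 at chrII:1648163-1648192 (plus), that of cdc22 at chrI:4226901-4226930 (plus) and that of cdc18 at chrII:2218019-2218048 (minus). The cdt1 stretch lies at chrII:477306-477335 (plus), that of cig2 at chrI:2709709-2709738 (plus) and that of mik1 at chrII:221338-221367 (plus).

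In a window of 300 bases, from 250 before to 50 after the RefSeq gene start, 7 of the 10 genes held ACGCG, against 11.4% of 5112 promoters of coding genes searched in the same way. Each of the 7 held at least 3 copies by start position, a density found in 1.1% of all promoters. An ACGCGT counts as 2 copies of ACGCG in this tally, since it reads the same on both strands. In the 500 bases before the start codon, 6 of the 10 genes held ACGCG, against 16.1% of promoters, and 4 of the 10 held the full ACGCGT, against 4.64%. For ACGCG the windows differ in cig2, whose printed stretch runs from position -1371 to -1342 relative to its start codon, beside the start of its long leader. Around the gene start ACGCGT was found in 3 of the 10 genes, against 3.25% of promoters, since the 3 copies of mik1 fall outside that window. No ACGCG was found in either window of cdc10, res2 or suc22, which says only that these letters are absent there. The 9 other MBF targets examined all held ACGCG in both windows. A match in letters is a description of the promoter and was not measured as binding.

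**Figure D1:**
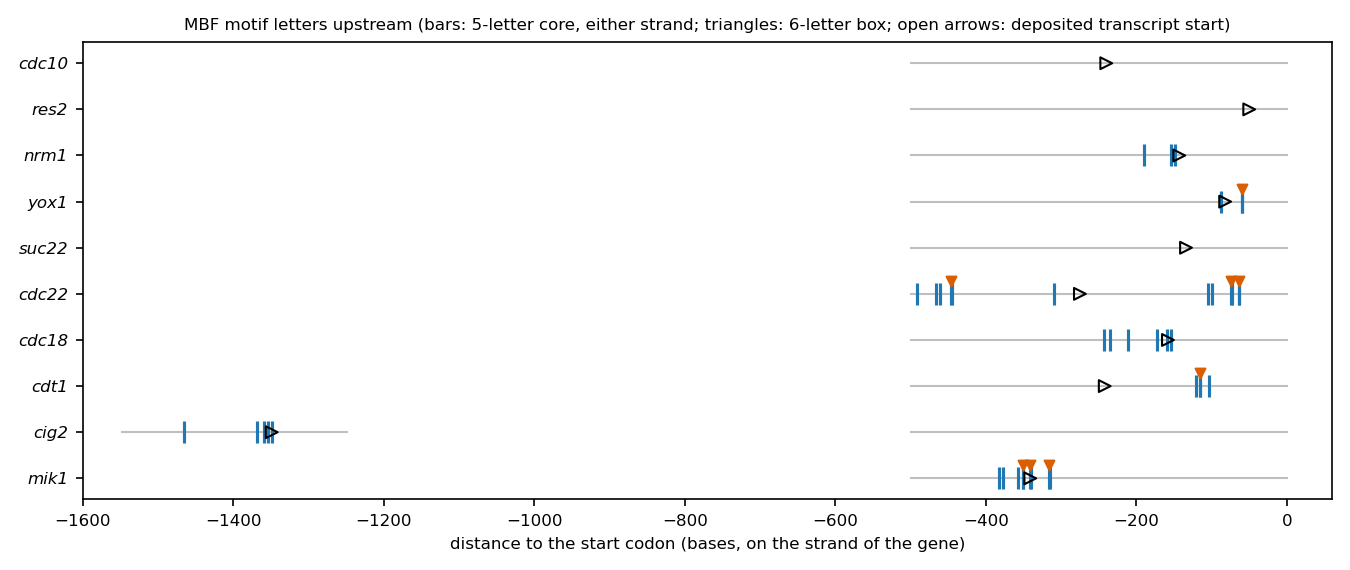
Positions of ACGCG (blue bars) and ACGCGT (orange triangles) in the 500 bases before the start codon of each gene, and for cig2 also around its distant gene start, as distance to the start codon in bases on the strand of the gene. Open arrows mark the start of the deposited gene interval. Copies stand before the start codon of 7 genes, in several of them after the start of the deposited interval, and cdc10, res2 and suc22 have none.

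Library totals ran from 14691752 to 23232575 counts, and the 10 genes had between 284 and 35436 counts in a library. Levels are in CPM, counts set relative to library sizes scaled by TMM. This method gives each library a scaling factor, on the assumption that most genes do not change. A gene was called higher or lower where its adjusted p in edgeR's quasi-likelihood F-test was under 0.05 over all 5214 genes (Benjamini-Hochberg), and fold changes are log2 values ± SE. Together the 10 genes took 0.246 to 0.269% of the counts in the controls, and in the treated groups they took 0.212 to 0.239% at 10 min, 0.143 to 0.166% at 15 min, 0.186 to 0.195% at 30 min and 0.162 to 0.175% after H2O2. A large part of these counts came from cdc22, with 61.6 to 64% of them in the controls and 45.8 to 51.2% at 15 min, so the sum mainly follows that gene. In RNA from whole cultures, fewer cells in the phase that expresses a gene and less RNA of it per cell cannot be told apart. The libraries of a group carry the letters a, b and c in the tables, and values are given in that order. Library a of the 15 min group was the shallowest of all 15 and was the lowest of its group for 9 of the 10 genes. The header of the count tables sets neither a strand option nor one for reads on overlapping genes. Of 900 genes wholly overlapped by others, 811 had 0 counts in all libraries, where 86 of 2338 genes with no overlap did. Reads on shared stretches were thus largely left uncounted, and levels of overlapped genes rest mainly on their unshared bases.

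At 10 min after plasma, the factor genes cdc10 and res2 were higher and the licensing genes cdc18 and cdt1 lower than in the controls, and the other 6 genes were not called. At 15 min, at 30 min and after H2O2 the picture was broader and the same in outline: cdc10 and res2 were higher, the 7 genes with ACGCG before the start codon were lower, and suc22 was not called in any of the 3. Between 15 and 30 min yox1, cdc22, cdc18 and cig2 rose again in part. The smaller rise of nrm1 (0.14 ± 0.05) missed the threshold. Neither cdt1 (-0.01 ± 0.09) nor mik1 (-0.19 ± 0.11) was called.

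At 10 min 2 of the 10 genes were higher, where 21.9% of all genes tested were, and 2 were lower, where 17% of all genes were. At 15 min 2 were higher (27.1% of all genes) and 7 lower (24.8% of all genes). The 30 min group had 2 higher (31.0% of all genes) and 7 lower (29.0% of all genes). The H2O2 group also had 2 higher (28.5% of all genes) and 7 lower (25.6% of all genes). The share of genes that were lower was thus close to the background at 10 min, and 7 of 10 in the 3 other groups, while the count of higher genes was near or below the background in each of the 4. The median log2 fold change of the 10 was -0.14 at 10 min, -0.71 at 15 min, -0.30 at 30 min and -0.74 after H2O2, and the median of all genes lay within 0.01 of 0 in each.

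**Figure D2:**
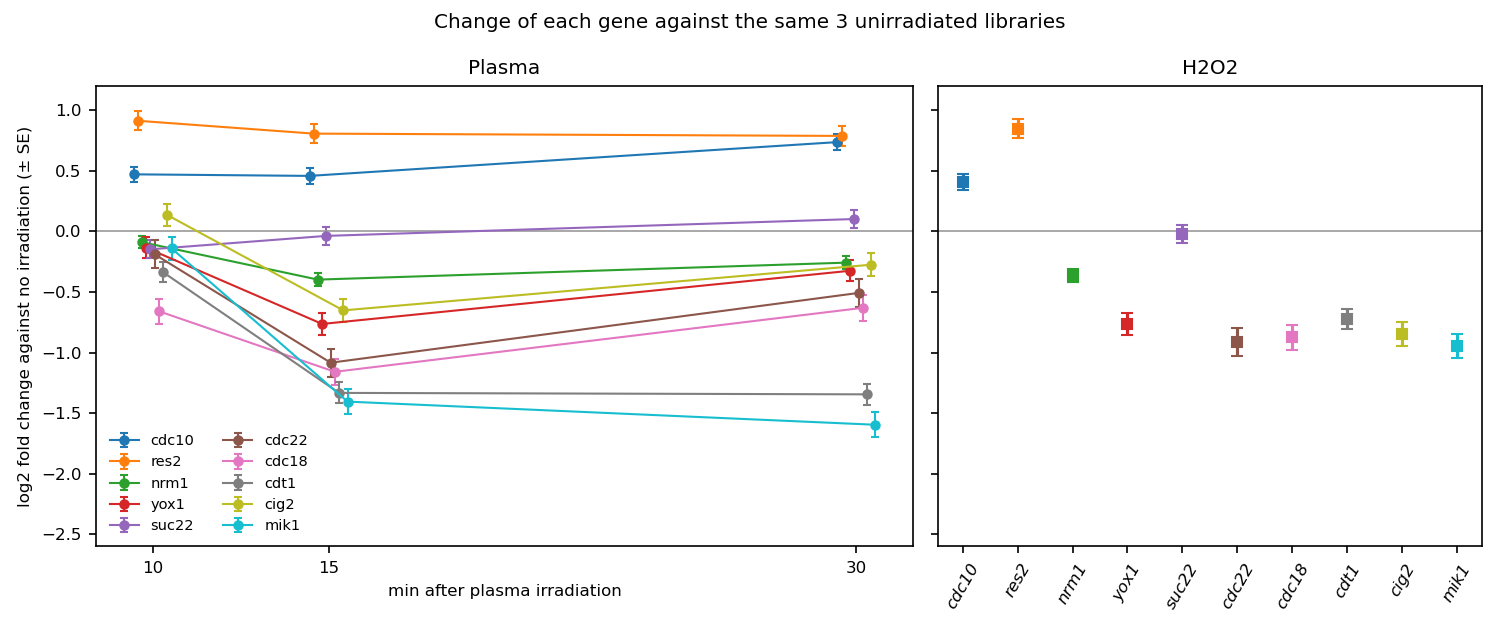
Log2 fold change of each gene against no irradiation (± SE from the fit), by minutes after plasma on the left and after H2O2 on the right, all relative to the same 3 control libraries. The cdc10 and res2 values lie above 0 throughout, suc22 stays near 0, and cdt1 and mik1 reach -1.35 and -1.60 at 30 min, when the other lower genes lie between -0.63 and -0.26.

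Of the factor genes, cdc10 (SPBC336.12c, chromosome II, 2760741 to 2763830 on the minus strand as the tables list it) encodes the subunit common to all forms of MBF. Its level was 83.0, 87.3 and 90.2 CPM in the controls, 119, 127 and 115 CPM at 10 min, 109.5, 129.6 and 118 CPM at 15 min, 138, 149 and 147 CPM at 30 min, and 116, 109.5 and 119.5 CPM after H2O2. Every treated library was above every control library, and the 30 min libraries were above all others. The change from the controls was 0.47 ± 0.06 at 10 min (adjusted p = 2.61e-05, edgeR), 0.46 ± 0.06 at 15 min (2.13e-05), 0.74 ± 0.06 at 30 min (9.46e-08) and 0.41 ± 0.06 after H2O2 (5.92e-05). The 30 min group also exceeded the 15 min group by 0.28 ± 0.06 (0.00376), the 10 min group by 0.27 ± 0.06 (0.00328) and H2O2 by 0.33 ± 0.06 (0.000991), all by edgeR. The difference from 15 min was no longer called when libraries were scaled by their total counts (adjusted p = 0.0548). Between 10 min, 15 min and H2O2 the levels of cdc10 were not told apart. Over 15.24% of its interval cdc10 overlaps vps52 on the other strand.

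The res2 gene (SPAC22F3.09c, chromosome I, 686543 to 689179, plus strand) encodes a DNA-binding partner of Cdc10. Its level was 41.2, 41.7 and 38.8 CPM in the controls, 73.9, 86.2 and 69.7 CPM at 10 min, 64.7, 79.3 and 69.1 CPM at 15 min, 66.3, 71.0 and 73.2 CPM at 30 min, and 72.5, 72.8 and 74.0 CPM after H2O2. The 12 treated libraries overlapped one another and stood clear of the controls. The change was 0.91 ± 0.08 at 10 min (adjusted p = 3.56e-07, edgeR), 0.81 ± 0.08 at 15 min (7.89e-07), 0.79 ± 0.08 at 30 min (6.45e-07) and 0.85 ± 0.08 after H2O2 (3.88e-07), the largest rises among the 10 genes in each treatment. No pair of treatments differed in res2. No other annotated gene overlaps it.

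The 3 further genes of the factor moved less uniformly. The rep1 gene, an activator used in meiosis, rose from 6.18 ± 0.84 CPM (SD, n = 3) in the controls to 13.6 ± 0.407 at 10 min and 13.6 ± 0.486 after H2O2, a log2 change of 1.14 ± 0.12 at 10 min, with smaller rises to 11.5 ± 1.75 CPM at 15 min and 8.72 ± 0.673 CPM at 30 min. The res1 gene, the other DNA-binding partner, rose by 0.19 ± 0.06 at 10 min, 0.32 ± 0.06 at 15 min, 0.23 ± 0.06 at 30 min and 0.63 ± 0.06 after H2O2, where its level was 147 ± 1.53 CPM against 95.1 ± 10.7 in the controls. The rep2 gene, the activator of the dividing cell cycle, fell at 10 min by 0.14 ± 0.05 (adjusted p = 0.0402, edgeR) and at 15 min by 0.42 ± 0.05 (8.62e-06), and was not called at 30 min (-0.10 ± 0.05) or after H2O2 (-0.01 ± 0.05).

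The repressor gene nrm1 (SPBC16A3.07c, chromosome II, 4285899 to 4288583, plus strand) stood at 113, 114 and 111 CPM in the controls and at 106, 109 and 102 CPM at 10 min. It stood at 81.8, 90.2 and 84.0 CPM at 15 min, 88.7, 97.5 and 96.1 CPM at 30 min, and 83.7, 85.9 and 92.7 CPM after H2O2. Each treated library was below each control library, although the step at 10 min was not called (-0.09 ± 0.05, adjusted p = 0.187, edgeR). The fall was 0.40 ± 0.05 at 15 min (1.23e-05), 0.26 ± 0.05 at 30 min (0.000514) and 0.36 ± 0.05 after H2O2 (2.6e-05), the smallest at 15 min, at 30 min and after H2O2 among the 7 lower genes. Between 15 and 30 min the difference of 0.14 ± 0.05 missed the threshold (0.0553), and it passed with RLE size factors (0.0474), with the library letter as a block (0.0476), without library b of 15 min (0.0271) or without library a of 30 min (0.0263). Over 53.71% of its interval nrm1 overlaps tad1 on the other strand.

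The second repressor gene, yox1 (SPBC21B10.13c, chromosome II, 1648153 to 1648840, plus strand), encodes a homeodomain protein that sits with Nrm1 on MBF. Its level was 48.2, 55.0 and 41.7 CPM in the controls, 46.7, 43.6 and 41.8 CPM at 10 min, 26.1, 30.6 and 28.5 CPM at 15 min, 37.5, 38.3 and 40.1 CPM at 30 min, and 29.4, 27.0 and 29.1 CPM after H2O2. The 10 min libraries lay inside the spread of the controls, and those of 15 min and H2O2 lay together well below. The fall was 0.76 ± 0.09 at 15 min (adjusted p = 3.69e-06, edgeR), 0.33 ± 0.09 at 30 min (0.00447) and 0.77 ± 0.09 after H2O2 (3.01e-06). The 10 min change of -0.14 ± 0.08 was not called with all libraries (0.225) and was called without control library c (0.0305). Without control library b the 30 min change was -0.21 (0.0395). From 15 to 30 min yox1 rose by 0.44 ± 0.09 (0.0021).

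The level of nrm1 relative to cdc10 was lower in every treated library than in every control library. Counted per unshared base of each gene, the base-2 logarithm of the ratio was 1.52, 1.46 and 1.37 in the controls and, at 10 min, 0.92, 0.86 and 0.90. The 15 min libraries had 0.66, 0.55 and 0.58, those of 30 min 0.44, 0.47 and 0.46, and those of H2O2 0.60, 0.72 and 0.71. The ratio itself went from 2.73 in the controls to 1.85, 1.51, 1.37 and 1.60. With 3 libraries against 3, the exact two-sided permutation test cannot give a p below 0.1, and it gave 0.1 for each treatment.

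**Figure D3:**
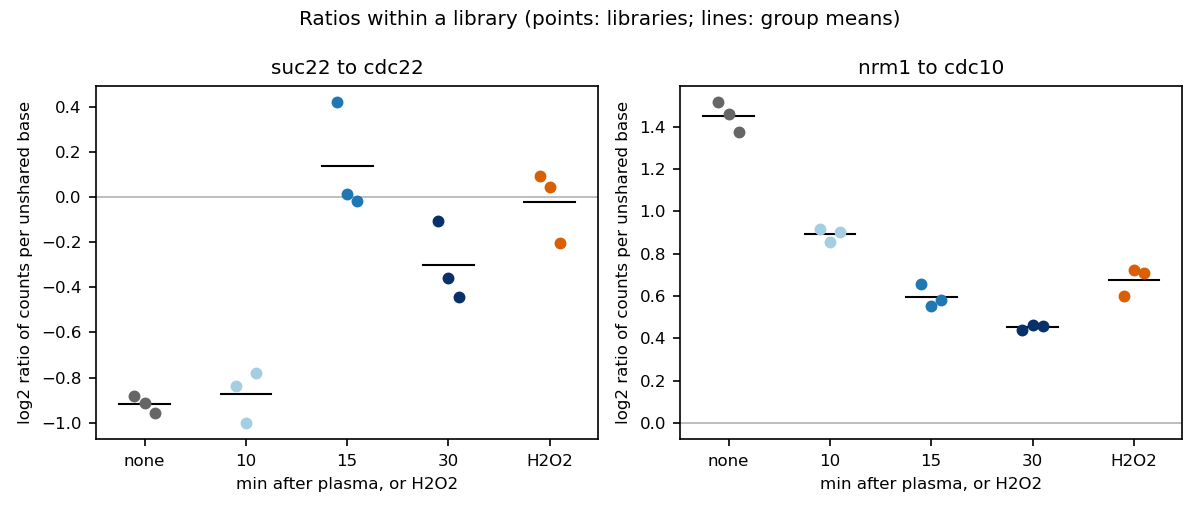
Base-2 logarithm of the ratio of counts per unshared base within each library, for suc22 to cdc22 on the left and nrm1 to cdc10 on the right. Points are libraries and lines are group means (n = 3). The suc22 to cdc22 ratio is near -0.92 in the controls and near 0 at 15 min and after H2O2, while the nrm1 to cdc10 ratio is below every control in all treated libraries.

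Ribonucleotide reductase makes the deoxynucleotides for replication and has a large subunit, Cdc22, and a small one, Suc22. The cdc22 gene (SPAC1F7.05, chromosome I, 4226707 to 4229989, plus strand), whose promoter holds the pair of full MluI boxes printed above, had the highest level per base of the 10 genes in the controls. Its level was 1457, 1806 and 1509 CPM there, 1295, 1556 and 1336 CPM at 10 min, 633, 806 and 811 CPM at 15 min, 989, 1182 and 1184 CPM at 30 min, and 823, 808 and 902 CPM after H2O2. The 10 min libraries overlapped the controls, the 30 min libraries lay between, and those of 15 min and H2O2 overlapped at the bottom. The fall was 1.08 ± 0.12 at 15 min (adjusted p = 1.73e-06, edgeR), a 2.12-fold drop, then 0.51 ± 0.12 at 30 min (0.00138) and 0.91 ± 0.12 after H2O2 (8.2e-06), and the 10 min value of -0.19 ± 0.12 was not called (0.209). From 15 to 30 min cdc22 rose by 0.58 ± 0.12 (0.00195). At 30 min it remained 0.32 ± 0.12 below 10 min (0.0383), a call lost with RLE size factors (0.052) and without library b (-0.21, 0.203) or c (0.0701) of 10 min or library a (0.146) or b (0.0528) of 30 min. Its lead of 0.40 ± 0.12 over H2O2 at 30 min (0.0143) was lost without library b (0.0582) or c (0.0573) of 30 min or library b of H2O2 (0.0548).

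The suc22 gene (SPBC25D12.04, chromosome II, 3721621 to 3723072, plus strand) did not move with its partner. Its level was 335, 407 and 329 CPM in the controls, 308, 329.5 and 330.1 CPM at 10 min, 359.5, 345 and 340.2 CPM at 15 min, 389.8, 390.3 and 370.0 CPM at 30 min, and 372.5, 353.5 and 333 CPM after H2O2. Control library b stood above all others and the other control libraries near the low end, so each treated group overlapped the controls. The 95% interval of its log2 change, by a normal approximation from the SE, was -0.29 to -0.002 at 10 min and -0.18 to 0.11 at 15 min. It was -0.04 to 0.25 at 30 min and -0.16 to 0.13 after H2O2. These intervals are somewhat too narrow: that of 10 min leaves out 0, where the unadjusted p was 0.0649 (edgeR). Changes of the size seen in cdc22 at 15 min lie well outside each. Without control library b the 30 min change was 0.22 and was called (adjusted p = 0.004, edgeR). The 30 min libraries were above those of 10 min by 0.25 ± 0.07 (0.0146), a call lost without library a of 10 min (0.0602).

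Within a library the ratio of suc22 to cdc22, per unshared base, was 0.543, 0.531 and 0.515 in the controls and 0.560, 0.499 and 0.583 at 10 min. The 15 min libraries had 1.34, 1.01 and 0.989, those of 30 min 0.930, 0.779 and 0.737, and those of H2O2 1.07, 1.03 and 0.870. The small subunit thus had fewer counts per base than the large one in controls and at 10 min, and about as many at 15 min and after H2O2. The difference in the mean log2 ratio was 0.05 at 10 min (exact two-sided permutation p = 0.5), and 1.06 at 15 min, 0.61 at 30 min and 0.90 after H2O2, each with p = 0.1, the smallest possible. Library a of 15 min, the shallowest, had the highest ratio.

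Among 8 further tested genes of nucleotide supply and of the ligase that Cdt2 directs, those higher numbered 2, 3 and 1 at the 3 plasma times and 1 after H2O2. Those lower numbered 2, 2 and 3 at the plasma times and 2 after H2O2. In that order the higher genes were 25, 37.5, 12.5 and 12.5%, where 21.9, 27.1, 31.0 and 28.5% of all genes were. The lower genes were 25, 25, 37.5 and 25%, where 17, 24.8, 29.0 and 25.6% of all genes were. The spd1 gene, whose product inhibits ribonucleotide reductase until the ligase destroys it, was higher in each treatment, by 0.26 ± 0.06 at 10 min, 0.56 ± 0.06 at 15 min, 0.51 ± 0.06 at 30 min and 0.36 ± 0.06 after H2O2. The dfr1 gene, for dihydrofolate reductase, was lower by 0.57 ± 0.10 at 30 min and by 0.54 ± 0.10 after H2O2. The cdt2 gene, itself an MBF target, is described with the other targets.

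**Figure D4:**
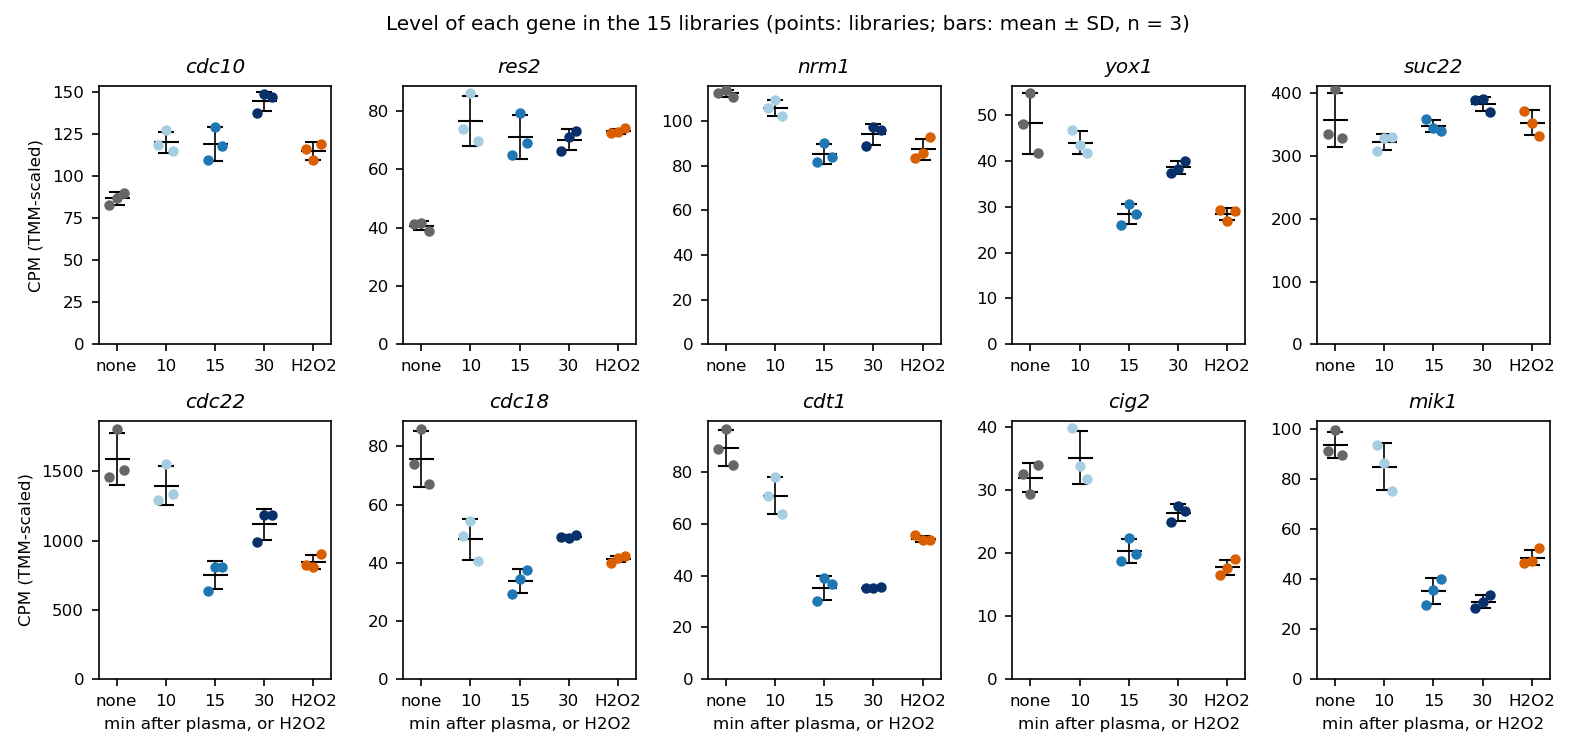
Level of each of the 10 genes in CPM on TMM-scaled library sizes, by library (points), with the mean ± SD of each group (bars, n = 3), for no irradiation, 10, 15 and 30 min after plasma and H2O2. Each panel has its own axis from 0. The treated libraries of cdc10 and res2 lie above the controls, those of cdt1 and mik1 are lowest at 15 and 30 min, and each treated group of suc22 overlaps the controls.

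Cdc18 and Cdt1 load the replicative helicase onto origins, and both must be made anew in each cycle. The cdc18 gene (SPBC14C8.07c, chromosome II, 2215955 to 2218031, minus strand) had 74.1, 86.0 and 67.0 CPM in the controls, 49.2, 54.4 and 40.6 CPM at 10 min, 29.2, 34.5 and 37.6 CPM at 15 min, 48.8, 48.4 and 49.7 CPM at 30 min, and 40.0, 41.7 and 42.2 CPM after H2O2. No treated library reached the controls, and the 15 min libraries were the lowest. The fall was 0.66 ± 0.10 at 10 min (adjusted p = 0.000132, edgeR), the largest of the 10 genes at that time, then 1.16 ± 0.11 at 15 min (3.57e-07), 0.63 ± 0.10 at 30 min (9.71e-05) and 0.88 ± 0.11 after H2O2 (4.94e-06). From 15 to 30 min cdc18 rose by 0.53 ± 0.11 (0.00236), back to the level of 10 min (difference 0.03 ± 0.11, 0.855). Against H2O2, no time was called with all libraries, and the 10 min difference of 0.22 ± 0.11 (0.135) was called without library c of 10 min (0.0386). Over 37.12% of its interval cdc18 overlaps the non-coding gene SPNCRNA.1495 on the other strand.

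The cdt1 gene (SPBC428.18, chromosome II, 477189 to 478738, plus strand) had 88.9, 96.6 and 82.9 CPM in the controls, 70.7, 78.3 and 63.8 CPM at 10 min, 30.1, 39.3 and 36.7 CPM at 15 min, 35.1, 35.1 and 35.6 CPM at 30 min, and 55.7, 53.7 and 53.6 CPM after H2O2. The groups fell in clear steps from the controls to 10 min, to H2O2 and to the overlapping libraries of 15 and 30 min. The fall was 0.34 ± 0.08 at 10 min (adjusted p = 0.00457, edgeR), 1.33 ± 0.09 at 15 min (8.49e-09), 1.35 ± 0.09 at 30 min (5.96e-09) and 0.72 ± 0.08 after H2O2 (3.72e-06). The 15 and 30 min groups differed by -0.01 ± 0.09 (0.942), with an approximate 95% interval of -0.19 to 0.17. Both were below H2O2, by -0.61 ± 0.09 (0.000114) and -0.62 ± 0.09 (9.81e-05). No annotated gene overlaps cdt1.

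Among other genes of origin licensing and initiation, more were lower than higher in each treatment. Of 23 tested, 9 (39.1%) were lower at each plasma time, where 17, 24.8 and 29.0% of all genes were. After H2O2 7 (30.4%) were lower, where 25.6% of all genes were. Those higher numbered 2, 4 and 3 at the plasma times and 3 after H2O2. That is 8.7 to 17.4%, where 21.9 to 31.0% of all genes were higher. Among them, sld3 rose by 0.35 ± 0.05 at 15 min (adjusted p = 1.75e-05, edgeR). The list medians ran from -0.10 to -0.03. The lowest was -0.64 ± 0.05 at 15 min, for dfp1, the regulatory subunit of the kinase that fires origins, which also fell by 0.44 ± 0.05 at 10 min (beside 0.47 ± 0.06 for mcm6, a subunit of the helicase), 0.42 ± 0.05 at 30 min and 0.58 ± 0.05 after H2O2.

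Cig2 is the main cyclin of S phase. Its gene (SPAPB2B4.03, chromosome I, 2709731 to 2714162, plus strand) had 32.6, 29.4 and 33.9 CPM in the controls, 39.8, 33.8 and 31.7 CPM at 10 min, 18.7, 22.4 and 19.8 CPM at 15 min, 24.9, 27.5 and 26.7 CPM at 30 min, and 16.6, 17.6 and 19.0 CPM after H2O2. At 10 min it overlapped the controls from above, and after H2O2 it had its lowest mean. The change at 10 min was 0.14 ± 0.09 (adjusted p = 0.267, edgeR), and the fall was 0.65 ± 0.10 at 15 min (4.36e-05) and 0.85 ± 0.10 after H2O2 (3.11e-06). At 30 min the fall was 0.28 ± 0.10 (0.0209), a call lost without control library a (0.0584) or c (0.072) or without library a of 30 min (0.0757). Between 15 and 30 min cig2 rose by 0.38 ± 0.10 (0.00992), which was not called with scaling by total counts (0.107). Over 77.01% of its interval cig2 overlaps SPNCRNA.846 and pmc1 on the other strand.

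Mik1 is a kinase that, with Wee1, keeps the cyclin-dependent kinase Cdc2 inactive while DNA is copied. Its gene (SPBC660.14, chromosome II, 221358 to 224117, plus strand) had 91.5, 99.8 and 89.8 CPM in the controls, 93.7, 86.4 and 75.1 CPM at 10 min, 29.8, 35.5 and 40.2 CPM at 15 min, 28.4, 30.8 and 33.8 CPM at 30 min, and 46.4, 47.3 and 52.3 CPM after H2O2. The 10 min libraries overlapped the controls, and at 15 min no library was above 40.2 CPM. The fall was 1.41 ± 0.10 at 15 min (adjusted p = 2.23e-08, edgeR), 1.60 ± 0.10 at 30 min (4.9e-09), a 3.02-fold drop and the largest of the 10 genes, and 0.94 ± 0.10 after H2O2 (9.9e-07). The step from 15 to 30 min was -0.19 ± 0.11 and was not called (0.192). Both were below H2O2, by -0.46 ± 0.10 (0.0041) and -0.65 ± 0.10 (0.000255). No annotated gene overlaps mik1, and it shares the stretch between start codons with ssb1, an MBF target read in the other direction.

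Of 13 other cyclin and kinase regulator genes, 7 (53.8%) were higher in each treatment, where 21.9 to 31.0% of all genes were. Those lower numbered 3, 2, 2 and 1 at 10, 15 and 30 min and after H2O2. That is 23.1, 15.4, 15.4 and 7.69%, where 17, 24.8, 29.0 and 25.6% of all genes were lower. The pas1 gene, for a cyclin known to activate the Res2 and Cdc10 complex, rose from 193 ± 21.6 CPM in the controls to 369 ± 18.1 at 10 min, 391.5 ± 24.0 at 15 min and 532 ± 46.6 at 30 min, the last a change of 1.47 ± 0.09. The pyp3 gene, for a phosphatase that removes the inhibitory phosphate from Cdc2, rose by 0.56 ± 0.06, 0.67 ± 0.06 and 0.89 ± 0.06 at the 3 times and by 0.94 ± 0.06 after H2O2. Of 10 S phase checkpoint genes, 4, 5, 5 and 5 were higher in the same order. That is 40, 50, 50 and 50%, where 21.9, 27.1, 31.0 and 28.5% of all genes were. Those lower numbered 1, 1, 2 and 1, or 10, 10, 20 and 10%, where 17, 24.8, 29.0 and 25.6% of all genes were. The crb2 gene rose by 0.38 ± 0.05 at 10 min and 0.40 ± 0.05 at 15 min, and rad26 by 0.73 ± 0.08 after H2O2. The cds1 gene, for the kinase of stalled forks, rose by 0.43 ± 0.07 at 15 min and 0.68 ± 0.07 at 30 min, with 46.9% of its interval shared with another gene.

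Plasma times were compared directly with each other. From 10 to 15 min, 7 of the 10 were lower (5.96% of all genes tested) and none was higher (7.67% of all genes), and the 3 not called were cdc10, res2 and suc22. The falls over this step were 0.31 ± 0.05 for nrm1, 0.50 ± 0.11 for cdc18, 0.63 ± 0.09 for yox1, 0.79 ± 0.10 for cig2, 0.90 ± 0.12 for cdc22, 1.0 ± 0.09 for cdt1 and 1.26 ± 0.10 for mik1. From 15 to 30 min, 5 of the 10 were higher (15.1% of all genes), namely cdc10, yox1, cdc22, cdc18 and cig2, and none was lower (13.7% of all genes). Between 10 and 30 min, 2 were higher (19.9% of all genes), cdc10 and suc22, and 5 were lower (18.9% of all genes), nrm1, cdc22, cdt1, cig2 and mik1. Of the 5, mik1 was lower by 1.46 ± 0.10, cdt1 by 1.01 ± 0.09 and cig2 by 0.41 ± 0.10, while the call of nrm1 (-0.17 ± 0.05, adjusted p = 0.0168, edgeR) was lost without library b of 10 min (0.117) or library a of 30 min (0.0793).

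Against H2O2, 6 genes were higher at 10 min (14.8% of all genes) and none was lower (17.5% of all genes): nrm1, yox1, cdc22, cdt1, cig2 and mik1. The largest of these differences was 0.98 ± 0.10 for cig2 (adjusted p = 1.42e-06, edgeR), followed by 0.80 ± 0.10 for mik1 (1.35e-05) and 0.73 ± 0.12 for cdc22 (0.000192). At 15 min none of the 10 was higher than after H2O2 (9.90% of all genes) and 2 were lower (13.2% of all genes), cdt1 and mik1. At 30 min 4 were higher (15.3% of all genes), cdc10, yox1, cdc22 and cig2, and 2 were lower (16.7% of all genes), again cdt1 and mik1. In the 4 directions without a call (higher from 10 to 15 min, lower from 15 to 30 min, lower at 10 min than after H2O2, higher at 15 min than after H2O2), edgeR's unadjusted p was under 0.05 for 0 of the 10 genes and DESeq2 called 0. These tests use the plasma and H2O2 libraries directly, and since the time of H2O2 is not given, they compare the sampled cultures and not matched times.

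The level per unshared base sets the genes in order within the controls. Among 4958 tested genes with at least 200 unshared bases, cdc22 stood at percentile 95.2 and suc22 at 91.6. The repressors followed, nrm1 at percentile 76.3 and yox1 at 69.3, then cdc18 at 63.1 and cdt1 at 63.0. The lowest were mik1 at percentile 43.8, cdc10 at 43.0, cig2 at 41.0 and res2 at 22.3.

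Other MBF targets gave a mixed picture. Of 9 such genes, 6 were tested, and mrc1, ctp1 and psm3 were listed at 0 counts in all libraries and almost the whole of each interval overlaps another gene. None of the 6 was higher at 10 min and 2 were lower, at 15 min 3 were lower and none higher, and at 30 min and after H2O2 1 was higher and 2 were lower. The lower genes were thus 33.3, 50, 33.3 and 33.3%, where 17, 24.8, 29.0 and 25.6% of all genes were. The higher genes were 0, 0, 16.7 and 16.7%, where 21.9, 27.1, 31.0 and 28.5% of all genes were. The tos4 gene, for a protein with a forkhead-associated domain, followed the pattern of cdc22, at 558 ± 36.1 CPM in the controls, 439 ± 34.4 at 10 min, 219.7 ± 33.7 at 15 min, 316 ± 16.3 at 30 min and 236 ± 14.2 after H2O2. Its changes were -0.35 ± 0.10, -1.34 ± 0.10, -0.82 ± 0.10 and -1.24 ± 0.10, all called, and the rise from 15 to 30 min was 0.52 ± 0.10 (adjusted p = 0.00123, edgeR). The cdt2 gene, for the adaptor that directs the ligase to Spd1 and Cdt1, went the other way: 105 ± 2.52 CPM in the controls, 105 ± 6.86 at 10 min, 112 ± 0.222 at 15 min, 197 ± 6.88 at 30 min and 131 ± 8.04 after H2O2. It rose by 0.90 ± 0.06 at 30 min (2.8e-09) and by 0.31 ± 0.06 after H2O2 (0.000188).

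Of the other 4 targets, pol1, for the catalytic subunit of polymerase alpha, fell by 0.20 ± 0.06 at 10 min (adjusted p = 0.0269, edgeR), 0.40 ± 0.07 at 15 min (0.000135) and 0.26 ± 0.07 at 30 min (0.0035), with -0.04 ± 0.06 after H2O2 (0.587). The cohesin gene rad21 fell at 15 min by 0.25 ± 0.06 (0.00429), and its other values ran from -0.07 to 0.00 without a call. The ssb1 gene, for the largest subunit of the single-strand binding protein, fell after H2O2 by 0.19 ± 0.07 (0.0328), and its plasma values ran from -0.15 to 0.09 without a call. The eso1 gene, which joins a cohesin acetyltransferase to a DNA polymerase, had values from -0.02 to 0.12 and was not called. All 6 hold ACGCG in both windows, so genes with these letters before the start codon included ones that fell, ones not called and, in cdt2, one that rose.

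Genes of other cell cycle phases were also compared. Of 17 genes of mitosis and cell separation, 9 were lower and 3 higher at 10 min, and 12 lower with 1, 2 and 2 higher at 15 min, 30 min and after H2O2, with medians of -0.24, -0.67, -0.70 and -0.71. The lower genes were 52.9% at 10 min and 70.6% in each other group, where 17 to 29.0% of all genes were. The higher genes were 17.6, 5.88, 11.8 and 11.8%, where 21.9 to 31.0% of all genes were. Their summed level was 4138 to 4859 CPM in the controls, 4079 to 4473 at 10 min, 2632 to 3124 at 15 min, 2666 to 3004 at 30 min and 2549 to 2936 after H2O2. The slp1 gene, for the activator of the ligase that ends mitosis, changed by -2.28 ± 0.11 at 15 min and -2.25 ± 0.11 at 30 min. Histone genes, which peak in S phase, went another way after plasma: of 7 tested, 3 were higher at 10 min and 5 at both 15 and 30 min with none lower, while after H2O2 1 was higher and 2 were lower. The higher histone genes were 42.9, 71.4, 71.4 and 14.3%, where 21.9, 27.1, 31.0 and 28.5% of all genes were. After H2O2 28.6% were lower, where 25.6% of all genes were. Their summed level was 5362 to 5692 CPM in the controls, 5865 to 7375 at 10 min, 6725 to 7982 at 15 min, 7260 to 8107 at 30 min and 5218 to 5466 after H2O2. The part of a changed distribution of cells over the cycle in the values of the 10 genes was not tested.

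**Figure D5:**
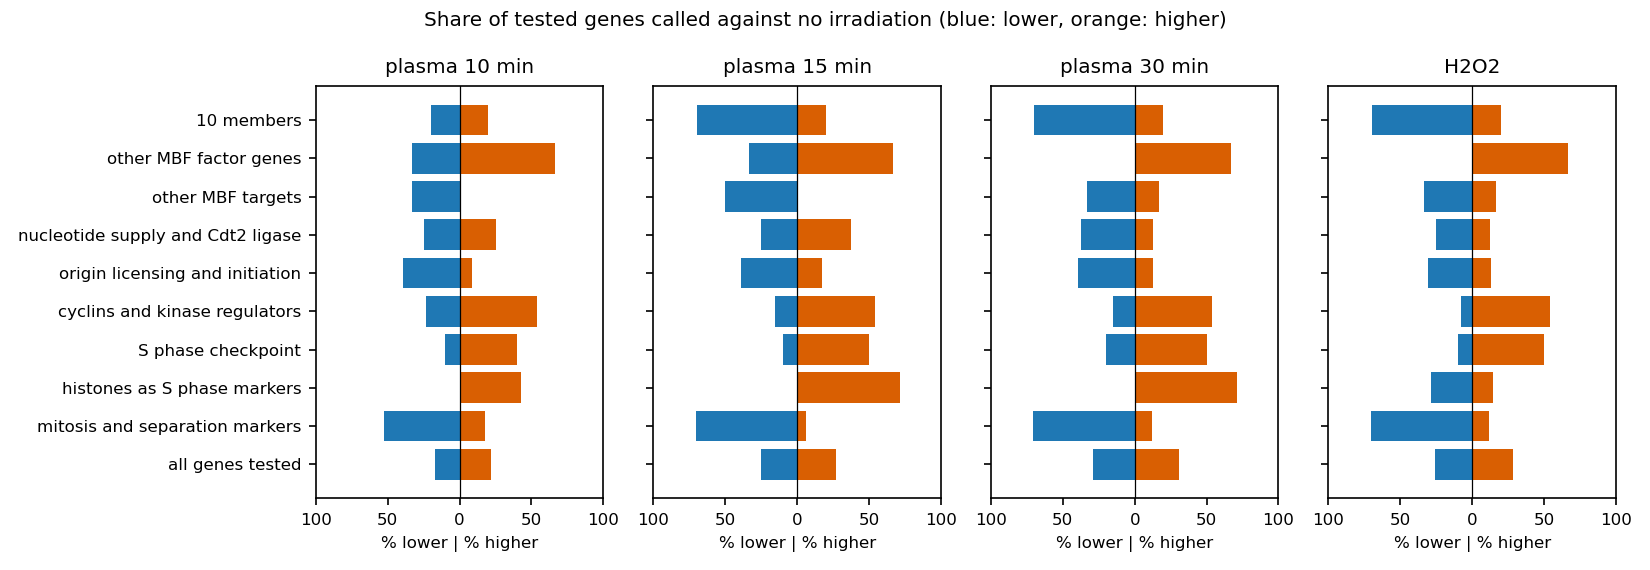
Share of the tested genes of each list that were lower (blue, to the left) and higher (orange, to the right) against no irradiation, in percent, for the 4 treatments, with all genes tested at the bottom. For the 10 genes 70% were lower at 15 min, 30 min and after H2O2, where 24.8, 29.0 and 25.6% of all genes were, and the histone list has no lower gene after plasma.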

How the data were processed

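Per the labels' protocols, total RNA came from a hot phenol extraction, and a stranded mRNA kit gave the libraries. Per the submitters' processing notes, HISAT2 2.2.1 and SAMtools 1.13 were used with a build named R64. That name belongs to budding yeast, so gene positions follow the deposited tables and no build is stated. Per the file headers, featureCounts 2.0.1 counted read pairs per gene and set neither a strand option nor one for reads on overlapping genes. The authors deposited raw counts in 2 tables, with the gene length in bases as a further column, and the H2O2 table holds no controls. Columns carry letters, which name the libraries here. The tables were joined, filtered with filterByExpr, scaled with TMM and fitted with 1 mean per group in edgeR 4.0.16 in R 4.3.3, after the script was tested on simulated data. The common biological coefficient of variation was 8.8%. Replicates differed by more than counting error, with a chi-square per degree of freedom of 8.76 to 78.79. The p-values measure the spread between samples that the labels call biological replicates.

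All 10 genes are given in every comparison. Of other genes, those of the MBF lists are given, and of the remaining lists genes among the 2 with the smallest p in a comparison. The members and lists were chosen with earlier results of these data known. Promoters came from RefSeq assembly ASM294v3, whose annotation gives the names. On it, 5108 of 5112 coding parts lie inside the interval of the deposited tables.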

Additional observations from a re-analysis of the deposited data

Results flagged for a closer look

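Some of the 10 genes differed between treatments where groups were tested directly against each other (edgeR's quasi-likelihood test, adjusted p under 0.05). The number that differed was 7 between 15 and 10 min (of all genes, 7.67% were higher and 5.96% lower). It was 5 between 30 and 15 min (15.1 and 13.7%) and 7 between 30 and 10 min (19.9 and 18.9%). Against H2O2 it was 6 at 10 min (14.8 and 17.5%) and 6 at 30 min (15.3 and 16.7%). Between 15 min and H2O2 it was 2 (9.90 and 13.2%), near the share over all genes. The res2 gene differed in none of these 6 comparisons. The cdt1 and mik1 genes differed in the same direction in each comparison where either was called.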

How the results depend on the processing

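Each of the 100 results (10 genes in 10 comparisons) was recomputed under 8 other settings and with each library of its groups left out. Of 800 values under other settings, 791 kept their side of the threshold, 3 lost a call and 6 gained one. Of 600 values with a library left out, 582 kept their side, 13 lost a call and 5 gained one. The direction of values called in neither fit was not counted. None of the called values changed sign, and DESeq2 1.42.0 changed no call. With total counts without TMM, 3 of the 10 genes were called between 30 and 15 min in place of 5, since cdc10 and cig2 dropped out. That scaling moved the median of all genes by at most 0.08 (log2, between 15 and 30 min). It also moved the split of all genes called: 371 higher and 153 lower from 10 to 15 min (400 and 311 with TMM), 1223 and 1619 at 30 min against no irradiation (1616 and 1510), 378 and 906 from 15 to 30 min (785 and 713), 712 and 1039 from 10 to 30 min (1035 and 986), 444 and 398 between 15 min and H2O2 (516 and 687), and 481 and 834 between 30 min and H2O2 (797 and 870). The fit to the 2 groups alone called 546 genes lower at 10 min in place of 884. It added calls for suc22 from 15 to 30 min (0.0484), yox1 from 10 to 30 min (0.037) and cdc18 between H2O2 and 15 min (0.0432) or 30 min (0.0022). The difference in the suc22 to cdc22 ratio at 10 min ran from -0.002 to 0.11 with a library left out.

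The letters of the libraries were also used as a replicate block. Deviations of libraries with the same letter correlated at -0.113 to 0.31, with a median of 0.12 and 17 of 30 pairs over 0.1. For different letters the median was -0.073, with 6 of 60 pairs over 0.1. The same-letter libraries thus deviated together more often, but not in every pair. The main fit and the permutation tests of the ratios treat the libraries as unpaired. The block changed 1 call, that of nrm1 between 15 and 30 min (adjusted p = 0.0476, edgeR). Members called then numbered 4 at 10 min and 9 at 15 min, at 30 min and after H2O2, as without it.

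Precision is limited by 3 libraries a group and by reads on overlapping genes, which bear on cig2, nrm1 and cdc18 most. The lowest count of any of the 10 genes in a library was 284.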

Other observations

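Genes outside these 10 were ranked by how alike their level over the 15 libraries ran to that of each member. The measure was Pearson's r of log2 CPM, with overlapping neighbours left out. The values are a description, since the libraries fall into 5 groups and share one scaling. Among genes outside the 10, tos4 was the nearest to nrm1 (r = 0.975), yox1 (0.946) and cdc22 (0.983). The klp5 gene, for a kinesin of mitosis, was the nearest to both cdt1 (0.981) and mik1 (0.971). The nearest to res2 was pcr1 (0.984), for a stress transcription factor, and the nearest to cdc10 was nhp6 (0.982), for a chromatin protein. The nearest to cdc18 was tfs1 (0.948), to cig2 ctr5 (0.919) and to suc22 SPAPB24D3.03 (0.871). Among the 10 genes themselves, r was 0.969 for cdt1 with mik1, 0.961 for nrm1 with cdc22, 0.953 for yox1 with cdc22, 0.828 for cdc10 with res2 and -0.718 for cdc10 with cdt1.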
